A study of Mus musculus with 10 samples.

Results

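Smooth muscle genes, 8 termed contractile and 2 for muscarinic receptors, were examined in lung tissue RNA of BALB/c mice with and without intranasal IL-33. The contractile genes were Acta2, Myh11, Tagln, Cnn1, Des, Actg2, Lmod1 and Myocd, a transcription coactivator gene, and the receptor genes were Chrm2 and Chrm3. They were chosen by symbol, and each of the 10 matched 1 of the 53465 genes listed in the count tables. The first group was 5 libraries of control mice described as untreated, and the other was 5 libraries of mice that received 1 µg of IL-33 in 35 µL through the nose on each of 5 days, with lungs taken 24 hours after the last dose. The labels name no genetic change, age or sex, and mention no vehicle for the controls, so the act of dosing and IL-33 cannot be told apart. No label states that each library is a separate animal, so the p-values measure only the spread between these libraries.

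IL-33 is an alarmin released by barrier epithelium, and its receptor is carried by innate lymphoid cells, mast cells and other immune cells. Smooth muscle wraps the airways and vessels of the lung and shortens when myosin pulls on actin filaments. Acetylcholine from airway nerves acts on the M3 receptor, which couples to Gq and raises calcium, and on the more abundant M2 receptor, which couples to Gi and opposes relaxation. Many contractile genes are switched on by serum response factor (SRF) and its coactivator myocardin through a DNA element called the CArG box.

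Levels below are CPM, reads of a gene per 1e6 reads counted in genes after TMM scaling, as mean ± SD of 5 libraries, and values per kilobase divide these by the summed length of a gene's exons. A log2 fold change sets IL-33 against control and carries the SE over libraries. A gene was called where the quasi-likelihood test of edgeR gave a p under 0.05 once adjusted by Benjamini-Hochberg over all genes tested. Libraries held 7805175 to 13767118 reads counted in genes. The groups did not overlap in the share of records aligned to several places, 15.0% to 16.2% in controls and 19.97% to 22.8% after IL-33, or in no gene, 10.4% to 11.1% and 11.4% to 13.7%, and the part of this in the values below was not tested. The lung epithelial markers Sftpc, Scgb1a1, Ager and Foxj1 summed to 28160 to 31132 CPM in controls and 21272 to 24586 CPM after IL-33, and Scgb1a1, the main club cell product, stood at 17129 ± 778 and 12069 ± 788 CPM. All 7 leukocyte markers were called higher, where 35.1% of all genes tested were. Their sum of 510 to 879 CPM in controls became 1939 to 2464 CPM. In tissue RNA, fewer smooth muscle cells and less RNA per cell cannot be told apart.

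The contractile genes split. Acta2, Actg2 and Tagln, the smooth muscle actins and an actin-binding protein, were higher after IL-33, and Myh11 and Cnn1 were lower. Tagln and Myh11 lost their calls once the trend of all genes on length and GC content was removed (adjusted p = 0.0519 and 0.0896). Des, Lmod1 and Myocd were not called. Both muscarinic receptor genes were lower, and by more than Myh11 or Cnn1. Of the 10 genes, all of which were tested, 3 were called higher and 4 lower, where 69.9% of the 15695 genes tested were called, 35.1% higher and 34.8% lower. The share called was thus that of all genes. The median log2 fold change was -0.15 for the 10 genes and -0.01 for all genes tested. At least 2-fold, 1 of the 10 was called higher and 2 lower, against 23.3% of all genes in either direction, 14.5% higher and 8.79% lower.

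**Figure D1:**
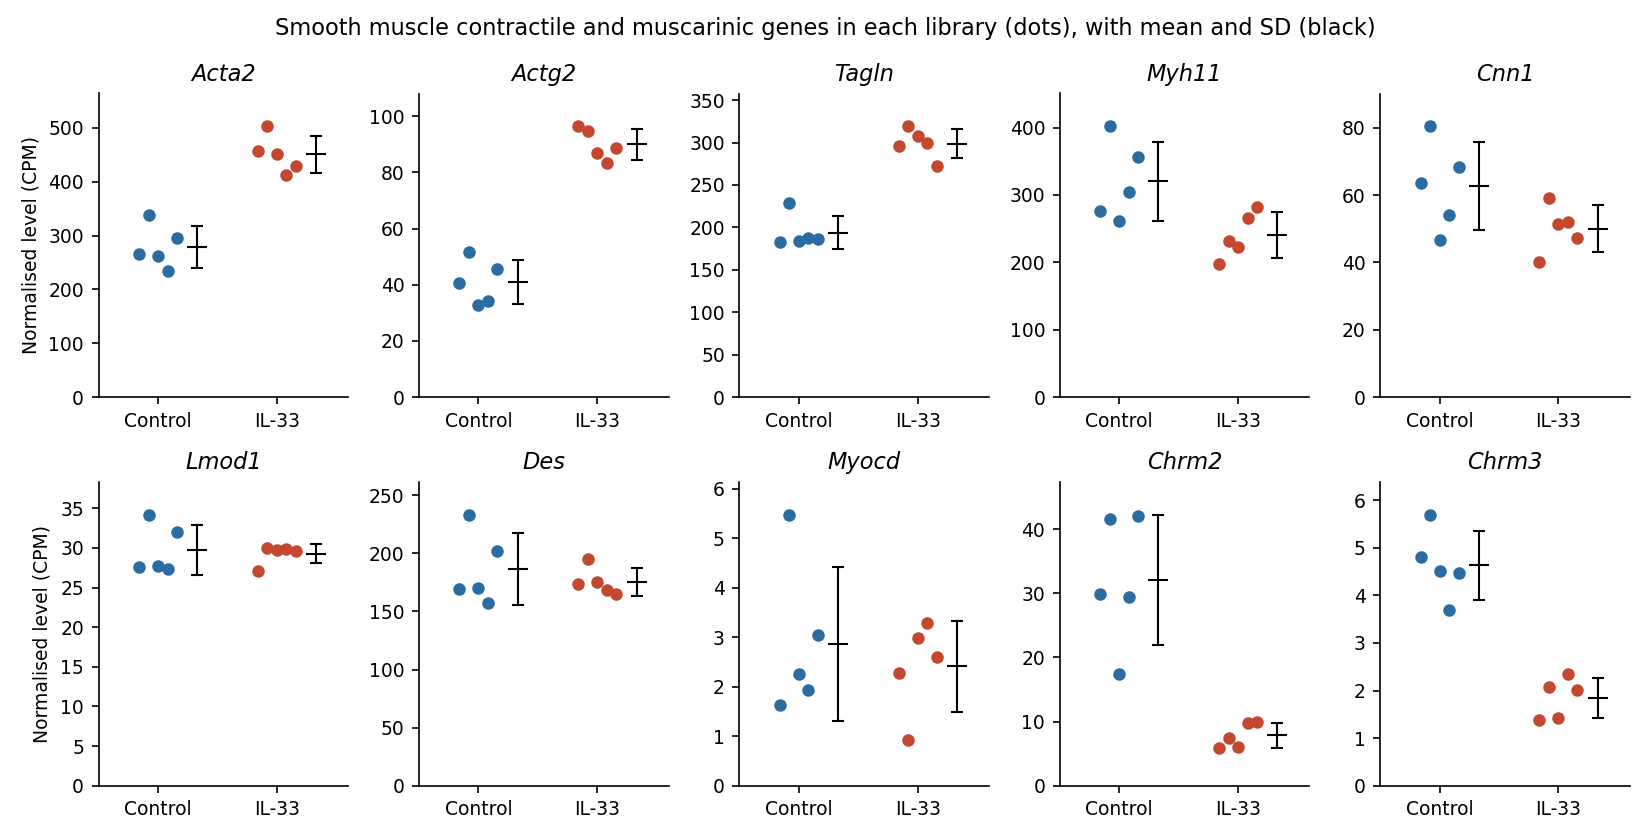
Normalised level in CPM (vertical axis, from 0) of each of the 10 genes in the 5 control and 5 IL-33 libraries (dots in replicate order), with the mean and SD in black. Acta2, Actg2 and Tagln are higher and Chrm2 and Chrm3 lower in every IL-33 library than in every control library, and the groups overlap for the other 5 genes.

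Acta2 (ENSMUSG00000035783), which encodes smooth muscle alpha-actin, is on chromosome 19, 34241090 to 34255590 (minus strand, GRCm38, as are all positions below). Its levels were 265, 337, 263, 234 and 295.5 CPM in control libraries 1 to 5 and 456, 503, 451, 413 and 429 CPM in IL-33 libraries 1 to 5. Every IL-33 library stood above every control library. The log2 fold change was 0.69 ± 0.10 (1.61-fold, adjusted p = 2.91e-05). The gene's promoter is shown because its CArG elements are the textbook route of control by SRF and myocardin. The window runs from 250 bases before to 50 bases after the RefSeq start site (chr19:34255324-34255623, minus strand, GRCm38.p6), and capitals mark matches to the CArG box with at most 1 of the 6 middle bases other than A or T.
Acta2 promoter: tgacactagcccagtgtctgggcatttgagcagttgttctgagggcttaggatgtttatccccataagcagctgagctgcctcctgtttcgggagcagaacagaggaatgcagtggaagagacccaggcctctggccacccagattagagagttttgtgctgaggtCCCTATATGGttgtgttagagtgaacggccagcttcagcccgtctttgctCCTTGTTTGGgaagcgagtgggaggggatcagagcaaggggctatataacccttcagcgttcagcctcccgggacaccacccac
The matches CCCTATATGG and CCTTGTTTGG begin 84 and 34 bases before the start site that this window uses. The annotated gene reaches to 34255590, upstream of both matches, so these distances hold for that start site alone.

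RefSeq promoter windows were at hand for 6 of the 10 genes, Acta2, Cnn1, Des, Lmod1, Chrm2 and Chrm3. None of the 6 held a CArG box with all 6 middle bases A or T, against 1.63% of 32851 windows of the same length. A search added after the exact one was seen allowed 1 of the 6 middle bases to be other than A or T. The Acta2 window alone of the 6 then matched, against 9.98% of all windows. Sites with a base off in the CC or GG were not searched for, such as ctaaatttgg in the Lmod1 window. The box reads the same on both strands, so 1 search covers both.

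Actg2, the gamma-actin of smooth muscle (ENSMUSG00000059430, chromosome 6, 83512905 to 83536265, minus strand), had the largest rise of the 10 genes. It stood at 40.65, 51.6, 32.8, 34.1 and 45.45 CPM in control libraries 1 to 5 and at 96.45, 94.5, 86.8, 83.4 and 88.6 CPM in IL-33 libraries 1 to 5, with no overlap. The log2 fold change was 1.14 ± 0.13 (2.20-fold, adjusted p = 1.41e-06). The longest reading frames of Acta2 and Actg2 are identical at 84.4% of 1131 aligned bases, but no 75-base window of either gene's transcripts occurs in another gene, so the pair can be told apart by reads of that length. At 50 bases, 0.326% of Acta2 windows occur elsewhere and none of Actg2. The labels do not state the read length.

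Tagln, the actin-binding protein SM22 (ENSMUSG00000032085, chromosome 9, 45929619 to 45936058, minus strand), stood at 183, 228, 184, 187.5 and 187 CPM in control libraries 1 to 5. It stood at 295.5, 319, 307, 299 and 273 CPM in IL-33 libraries 1 to 5. The IL-33 libraries were all above the controls, of which library 2 was the highest. The log2 fold change was 0.62 ± 0.07 (1.54-fold, adjusted p = 9.52e-06), which the length and GC correction took to 0.17 (adjusted p = 0.0519). Gm48529, annotated as antisense, overlaps 1241 of Tagln's 1988 exonic bases. Gm48529 itself was counted at 7.37 to 8.33 CPM in controls and 7.001 to 8.52 CPM after IL-33. The labels do not say whether the counting used strand. Without it, reads of the overlap cannot be told apart and count for neither gene, so the level of Tagln is uncertain. Antisense or opposite-strand genes overlap 220 bases of Des and 142 of Chrm2.

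Myh11, the smooth muscle myosin heavy chain (ENSMUSG00000018830, chromosome 16, 14194535 to 14291372, minus strand), went the other way. Control libraries 1 to 5 held 276, 402, 261.5, 304 and 357 CPM and IL-33 libraries 1 to 5 held 198, 232, 222.5, 265 and 282.5 CPM. The groups overlapped, with IL-33 libraries 4 and 5 above control library 3 and IL-33 library 5 also above control library 1. The log2 fold change was -0.41 ± 0.15 (adjusted p = 0.0109), which the same correction took to -0.22 (adjusted p = 0.0896). Cnn1, calponin, which binds actin and restrains myosin (ENSMUSG00000001349, chromosome 9, 22099216 to 22109630, plus strand), went from 62.6 ± 13.0 to 49.96 ± 6.95 CPM with overlapping groups. Its log2 fold change of -0.33 ± 0.16 passed narrowly (adjusted p = 0.0480), and adjusted p was 0.118 without IL-33 library 1, 0.117 without control 2 and 0.0554 by limma-voom.

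Desmin, the intermediate filament of muscle (Des, ENSMUSG00000026208, chromosome 1, 75360329 to 75368579, plus strand), ranged from 158 to 234 CPM in controls and from 165 to 195 CPM after IL-33. Its log2 fold change was -0.09 ± 0.11 (adjusted p = 0.454). Lmod1, leiomodin, which nucleates actin filaments (ENSMUSG00000048096, chromosome 1, 135324807 to 135368065, plus strand), ranged from 27.4 to 34.2 CPM in controls and from 27.1 to 30.1 CPM after IL-33, with a log2 fold change of -0.02 ± 0.07 (adjusted p = 0.816). The SE of 0.07 makes Lmod1 the most tightly measured of the members that were not called. Myocd, the coactivator itself (ENSMUSG00000020542, chromosome 11, 65176561 to 65269989, minus strand), was scarce, with 8 to 50 reads per library. It stood at 1.63 to 5.48 CPM in controls and 0.921 to 3.28 CPM after IL-33. Its log2 fold change of -0.20 ± 0.43 (adjusted p = 0.634) says only that no change was detectable at this depth and spread between libraries.

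Per kilobase, Acta2 led in both groups, at 127 ± 17.8 CPM per kilobase in controls and 205 ± 15.6 after IL-33, followed by Tagln at 97.5 ± 9.74 and 150 ± 8.65. In controls the order went on with Des, Myh11, Actg2, Cnn1, Lmod1, Chrm2, Chrm3 and Myocd. Within each control library each gene stood above the next, although the ranges over libraries overlapped between Acta2 and Tagln, Des and Myh11, Actg2 and Cnn1, Lmod1 and Chrm2, and Chrm3 and Myocd. After IL-33 Actg2, at 57.8 ± 3.48 CPM per kilobase, stood above Des at 46.8 ± 3.16 and Myh11 at 31.6 ± 4.45 with no overlap. Chrm3, at 0.296 ± 0.0674 CPM per kilobase, was then last, overlapping with Myocd.

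Ratios of 2 genes within a library do not depend on its scaling. Per exonic length, the ratio of Acta2 to Myh11 ranged from 2.67 to 3.48 in controls and from 5.26 to 7.97 after IL-33. That of Tagln to Myh11 ranged from 2.001 to 2.69 and from 3.69 to 5.70. Actin and SM22 transcripts were thus higher against myosin in every IL-33 library than in every control. The ratio of Actg2 to Acta2 ranged from 0.176 to 0.217 in controls and from 0.265 to 0.298 after IL-33, again without overlap.

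**Figure D2:**
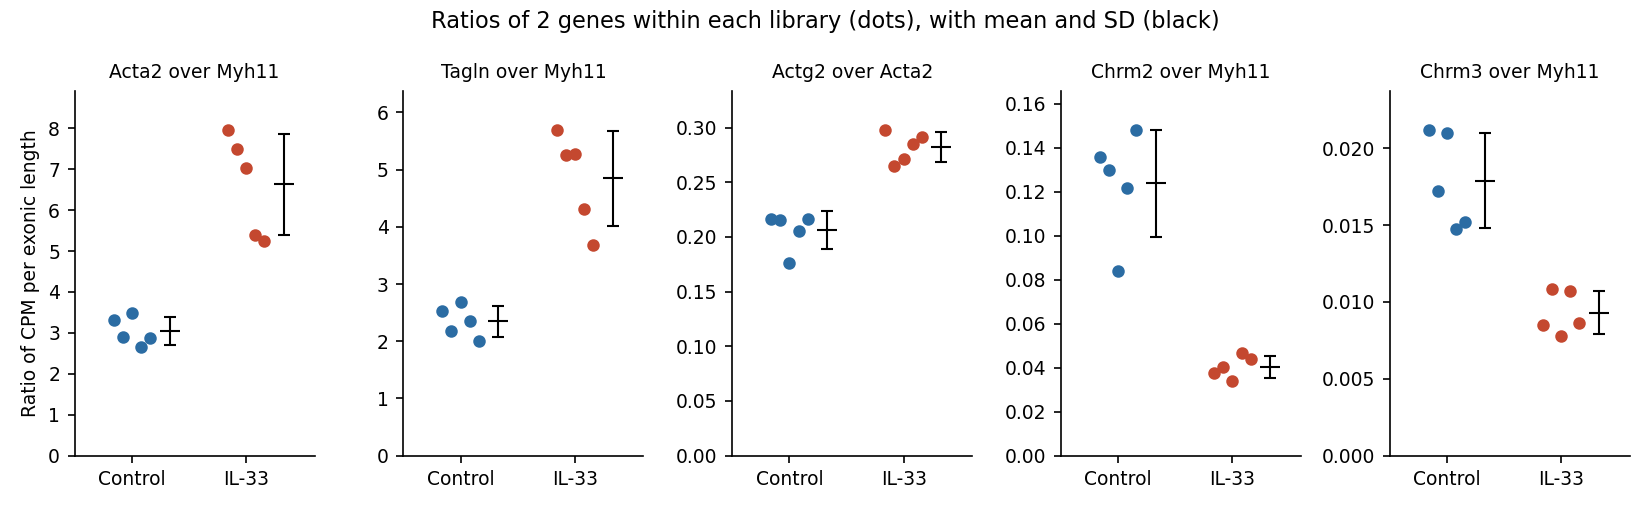
Ratio of 2 genes' CPM per exonic length within each library (vertical axis, from 0), for 5 pairs, with libraries as dots in replicate order and mean and SD in black. The actin and SM22 ratios are higher, and the receptor to Myh11 ratios lower, in all 5 IL-33 libraries than in all 5 controls.

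These values move with transcript length, which ran with the fold change over all genes. With all tested genes in 10 bins by exonic length, the median log2 fold change went from 0.72 in the shortest bin to -0.31 in the longest. Acta2, Actg2 and Tagln are short (1557 to 2196 bases) and lie in a bin with a median of 0.36, and Myh11 (7599 bases) lies in a bin with a median of -0.27. With each library's trend on length and GC content removed, Actg2 was still called at 0.57 (adjusted p = 0.000381) and Acta2 at 0.27 (adjusted p = 0.0174). Tagln and Myh11 were not, as given above, and Cnn1 was called at -0.61 (adjusted p = 0.00106). The gap between Acta2 and Myh11 was 1.11 on the log2 scale before and 0.48 after the correction. Whether the length trend is technical was not tested. After the correction 2 of the 10 genes were called higher and 3 lower, against 68.4% of all genes called in either direction, 30.5% higher and 37.9% lower.

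**Figure D3:**
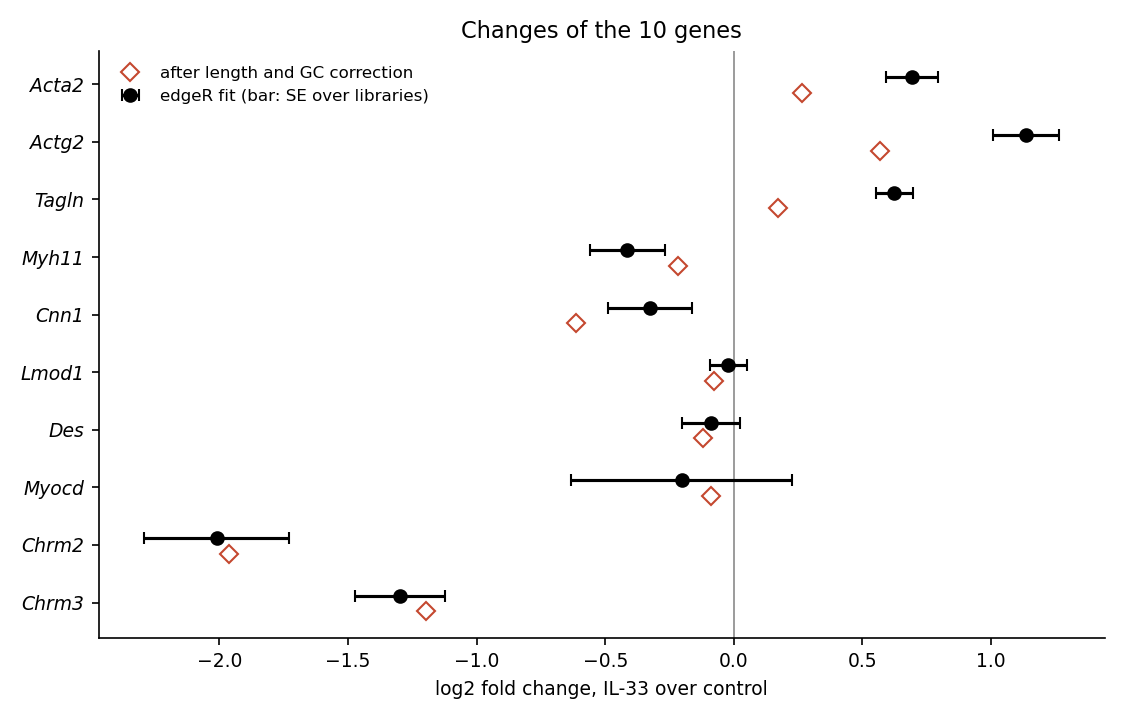
Log2 fold change of IL-33 over control (horizontal axis) for each of the 10 genes, from the edgeR fit (filled, bars are the SE over 5 and 5 libraries) and after removal of the trend on length and GC content (open). Values for Actg2, Acta2 and Tagln shrink toward 0, to 0.57, 0.27 and 0.17, while Chrm2 and Chrm3 stay at -1.96 and -1.20.

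Chrm2, the M2 receptor gene (ENSMUSG00000045613, chromosome 6, 36388084 to 36528414, plus strand), fell the most of the 10 genes. Control libraries 1 to 5 held 29.9, 41.55, 17.5, 29.5 and 42.1 CPM. IL-33 libraries 1 to 5 held 5.935, 7.48, 5.98, 9.84 and 9.91 CPM. The lowest control stood above the highest IL-33 library, and the log2 fold change was -2.01 ± 0.28 (4.03-fold lower, adjusted p = 5.67e-06). Chrm3, the M3 receptor gene (ENSMUSG00000046159, chromosome 13, 9875486 to 10360847, minus strand), held 4.815, 5.70, 4.51, 3.68 and 4.47 CPM in control libraries 1 to 5 and 1.385, 2.07, 1.43, 2.34 and 2.01 CPM in IL-33 libraries 1 to 5. These groups did not overlap either, on 40 to 68 reads per control library and 11 to 30 per IL-33 library. The log2 fold change was -1.30 ± 0.17 (2.46-fold lower, adjusted p = 4.98e-05). Both falls were larger than those of Myh11: per exonic length the ratio of Chrm2 to Myh11 ranged from 0.0840 to 0.148 in controls and from 0.0337 to 0.0465 after IL-33, and that of Chrm3 to Myh11 from 0.0147 to 0.0212 and from 0.00781 to 0.0108. The ratio of Chrm2 to Chrm3 ranged from 4.003 to 9.74 in controls and from 3.73 to 5.09 after IL-33, and overlapped. In all, 5 of the 10 genes had no overlap between groups, 3 higher and 2 lower, where 56.5% of all tested genes had none, 29.1% higher and 27.4% lower.

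Chrm2 is also a gene of heart muscle, where the M2 receptor slows the beat, and mouse lung holds cardiac muscle in the walls of its veins. The 9 cardiac muscle markers summed to 935, 2147, 1012, 552 and 1813 CPM in control libraries 1 to 5 and to 208, 621, 406, 560 and 409 CPM in IL-33 libraries 1 to 5. Myh6, the atrial myosin heavy chain, stood at 649 ± 349 and 134 ± 66.6 CPM. Of the 9 markers 5 were called lower and none higher. The share called was 55.6%, against 69.9% of all tested genes, 34.8% lower. Controls 2 and 5 were highest in both the cardiac sum and Chrm2, but the other controls did not all keep the same order. Control 3, with a cardiac sum of 1012 CPM, had the lowest Chrm2 of the controls at 17.5 CPM. Control 4, with the lowest control sum of 552 CPM, held 29.5 CPM of Chrm2. Among IL-33 libraries, library 2 had the highest sum and libraries 4 and 5 the highest Chrm2. The cardiac sums of the groups overlapped, with control 4 below IL-33 libraries 2 and 4. Of the 9 markers 1, Myh6, did not overlap, at 288 to 1112 CPM in controls and 38.5 to 208 CPM after IL-33. The levels of Chrm2 and Chrm3 did not overlap either. Kcnj3, a subunit of the potassium channel that the M2 receptor opens in atrial muscle, went from 9.78 ± 6.65 to 2.59 ± 1.20 CPM with overlapping groups (log2 fold change -1.87 ± 0.56, adjusted p = 0.00292). Controls 2 and 5 were also the highest controls in Des, at 234 and 202 CPM, and in Myocd, at 5.48 and 3.04 CPM. The same held for Myh11 and Acta2. The part of cardiac muscle in the values of the muscarinic genes, Des and Myocd was not tested.

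**Figure D4:**
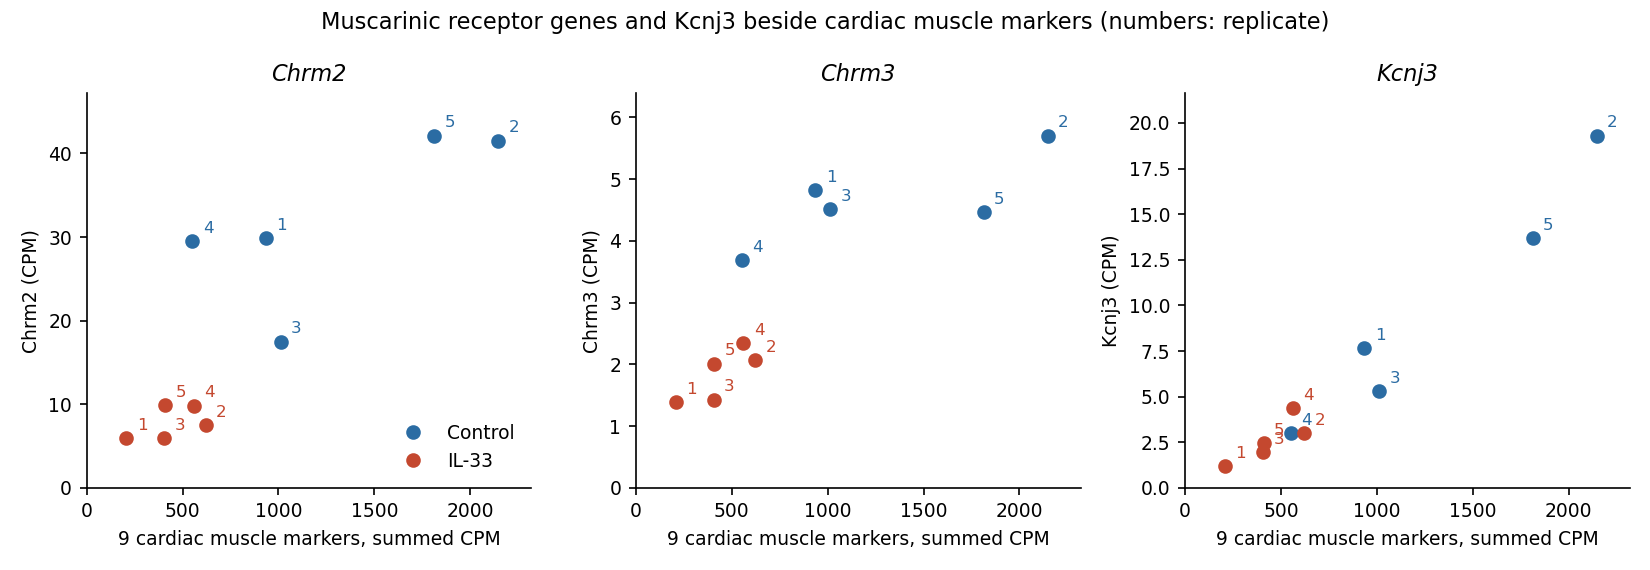
Level in CPM of Chrm2, Chrm3 and Kcnj3 (vertical axes) against the summed CPM of 9 cardiac muscle markers (horizontal axis) in each of 10 libraries, numbered by replicate. Control 2 and control 5 have the highest cardiac sums, 2147 and 1813 CPM, and the groups overlap in the cardiac sum and Kcnj3 and not in Chrm2 or Chrm3.

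Chrm1, the M1 receptor gene, was lower as well, from 2.40 ± 0.642 to 1.01 ± 0.259 CPM (log2 fold change -1.26 ± 0.23, adjusted p = 0.000631). Chrm4 and Chrm5 were close to 0, with 5 and 1 reads over all controls and 1 and 0 over all IL-33 libraries, and were not tested. Bche, butyrylcholinesterase, which breaks down acetylcholine, went from 14.9 ± 2.22 to 3.82 ± 0.878 CPM with no overlap (log2 fold change -1.94 ± 0.17, adjusted p = 3.81e-07). Ache, the main esterase of synapses, had 0.09 ± 0.21 (adjusted p = 0.752). Chat, which makes acetylcholine, had 2 reads over all controls and 0 after IL-33. Among the signal transducers Gnai2, a Gi subunit gene and the most abundant of the list, rose by 0.34 ± 0.08 (adjusted p = 0.00381). Rgs2, which shortens Gq signals, went from 84.2 ± 5.52 to 238 ± 79.4 CPM, and Arrb2, a beta-arrestin that uncouples receptors, from 50.3 ± 7.53 to 159 ± 25.2 CPM, while Arrb1 went from 370 ± 29.2 to 231 ± 36.6 CPM. All 3 were called and were picked after their values were seen. The leukocyte marker sum stood higher in the IL-33 libraries as given above, and its part in these values was not tested. Of the 24 genes of this muscarinic and acetylcholine list 19 were tested, 5 were called higher and 10 lower, with a median of -0.40, so that 78.9% were called against 69.9% of all tested genes.

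Of 17 other contractile and cytoskeletal genes, 4 were called higher, 6 lower and 7 not, with a median of -0.21. The share called was 58.8%, below the 69.9% of all tested genes. Synm, synemin, an intermediate filament protein that pairs with desmin, went from 160 ± 17.6 to 56.8 ± 12.0 CPM (log2 fold change -1.49 ± 0.17, adjusted p = 7.59e-07). Flna, filamin A, the most abundant, had -0.03 ± 0.09 (adjusted p = 0.771), which became 0.23 and called after the length correction (adjusted p = 0.0144). Chosen after their values were seen, Myl9, the regulatory myosin light chain, and Mylk, its kinase, were called at 0.45 and -0.25. After the length correction they stood at -0.18 and 0.05. Of the list 2 genes were then called higher and 5 lower.

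Of 14 partners and regulators of SRF and myocardin, 3 were called higher, 6 lower and 5 not, with a median of -0.24. The share called was 64.3%, against 69.9% of all tested genes. Prkg1, the cGMP-dependent kinase that mediates relaxation, went from 12.8 ± 2.71 to 3.77 ± 1.10 CPM (log2 fold change -1.72 ± 0.23, adjusted p = 7.08e-06), and Fhl1, a LIM protein of muscle, from 980 ± 24.8 to 567 ± 69.5 CPM (-0.79 ± 0.09, adjusted p = 4.21e-06). Fhl2, a LIM protein that binds SRF, went from 5.24 ± 1.99 to 15.9 ± 2.39 CPM (1.61 ± 0.27, adjusted p = 2.17e-05). Srf itself had a log2 fold change of 0.00 (adjusted p = 0.990), while its actin-sensing coactivators Mrtfa and Mrtfb were called at 0.25 and -0.73. These last 3 were picked after their values were seen.

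Among 18 receptors for other contracting and relaxing agonists 15 were tested, with 4 called higher and 8 lower (median -0.67), a share of 80% against 69.9% of all tested genes. Ptgir, the prostacyclin receptor, rose most, from 6.53 ± 0.527 to 35.9 ± 3.50 CPM (log2 fold change 2.46 ± 0.08, adjusted p = 1.02e-09). Agtr1a, the angiotensin receptor, went from 26.5 ± 5.53 to 7.56 ± 1.54 CPM (-1.79 ± 0.21, adjusted p = 1.22e-06), and Gucy1a1, a subunit of the nitric oxide receptor, from 369 ± 18.5 to 121 ± 19.2 CPM (-1.61 ± 0.11, adjusted p = 3.88e-08). Among calcium handling genes, Ryr2 and Casq2, a calcium release channel and a calcium store protein shared with heart, had -1.92 ± 0.44 (adjusted p = 0.000435) and -1.53 ± 0.51 (adjusted p = 0.00339), beside the cardiac sums above. Atp2a2, the calcium pump of the sarcoplasmic reticulum, went from 668 ± 189 to 416 ± 51.8 CPM (-0.68 ± 0.20, adjusted p = 0.00238).

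**Figure D5:**
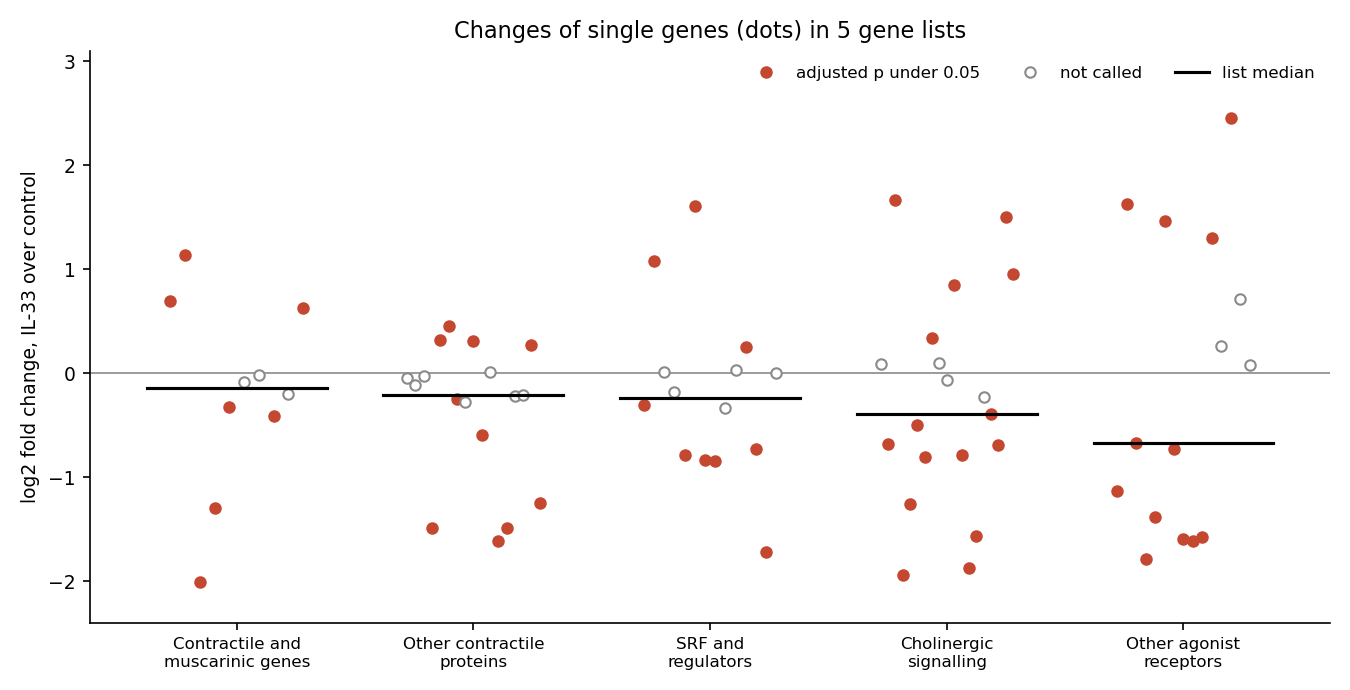
Log2 fold change of IL-33 over control (vertical axis) for every tested gene of 5 lists, filled where adjusted p was under 0.05, with the list median as a black line. List medians run from -0.15 for the contractile and muscarinic genes to -0.67 for other agonist receptors, and each list holds called genes on both sides of 0.

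Other cells of the lung carry some of these transcripts. Of 8 pericyte markers 1 was called higher, 5 lower and 2 not, a share of 75% called against 69.9% of all tested genes. Their sum of 580 to 678 CPM in controls became 341 to 392 CPM, with Pdgfrb going from 242 ± 18.7 to 95.7 ± 11.9 CPM. Fibroblast markers split, 4 higher and 5 lower of 11, a share of 81.8% called against 69.9% of all tested genes. Col3a1, a fibrillar collagen, went from 862 ± 137 to 1782 ± 266 CPM (log2 fold change 1.05 ± 0.15, adjusted p = 1.09e-05). Npnt and Pdgfra, picked after their values were seen, were among those called lower. They went from 1169 ± 100 to 381 ± 70.9 CPM and from 550 ± 68.9 to 213 ± 50.4 CPM. Rgs5 was the pericyte marker called higher, from 16.4 ± 3.73 to 68.6 ± 7.46 CPM (log2 fold change 2.07 ± 0.15, adjusted p = 4.28e-08). Acta2 and Tagln are also made by myofibroblasts and pericytes. Skeletal muscle markers summed to 26.6 to 91.2 CPM in controls and 10.8 to 30.4 CPM after IL-33, with the muscle creatine kinase gene Ckm the most abundant at 34.9 ± 19.6 and 9.24 ± 4.55 CPM, and Myh4 had no read in any library. Mesothelial markers summed to 106 to 153 CPM and 49.9 to 106 CPM, and Msln, mesothelin, stood at 60.7 ± 10.2 and 30.9 ± 10.3 CPM. The part of these cells in the members' values was not tested.

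Likeness within groups was measured as the root mean square difference between 2 genes' deviations from their group means, on the log2 scale over 10 libraries, among 12459 other genes at 5 CPM or more. Myh11, with deviations of 0.21 of its own, was most like Synpo2, a smooth muscle actin-bundling protein, at 0.059, then Dsg2 and Dsp, desmosome genes, at 0.069 and 0.083, with Zswim5 at 0.073 and Epdr1 at 0.082 between them, where the median over all genes was 0.25. Chrm2, with deviations of 0.40, was most like Agbl2 at 0.13, Vill at 0.14, Nr3c2, the mineralocorticoid receptor, at 0.15, Spef2 at 0.16 and Ttc21a at 0.16 (median 0.42). Actg2, with deviations of 0.18, was most like Cntln at 0.066, Mdh1 at 0.084 and Oxct1, Col8a1 and Ldhd at 0.087 to 0.088 (median 0.23).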

How the data were processed

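Lung tissue RNA was enriched for poly(A) and sequenced from KAPA stranded libraries, per the labels' protocols. The submitters' processing notes name FastQC 0.11.6, MultiQC 1.6, STAR 2.5.4b, HTSeq 0.9.1 and GRCm38. The labels state neither the annotation release nor the strand setting of the counting. The values the authors deposited are raw read counts, not normalized, 1 per gene and library. Entries that name no gene (10.4% to 11.1% of records in no gene in controls and 11.4% to 13.7% after IL-33, 15.0% to 16.2% and 19.97% to 22.8% multiply aligned, and 0.862% to 0.945% ambiguous in all libraries) entered neither library sizes nor tests. Symbols, positions and exonic lengths came from GENCODE M21 (GRCm38), and 53274 identifiers matched a symbol.

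All 10 libraries entered 1 edgeR 4.0.16 fit (R 4.3.3) with a group term alone, TMM factors of 0.969 to 1.03, filterByExpr and the quasi-likelihood test. SEs come from log2(CPM + 0.1) over 5 and 5 libraries. Alternatives were other scalings, filters, DESeq2 1.42.0, limma-voom (limma 3.58.1), a replicate block, a spline correction for length and GC content, and leaving out each library. Figures used Python 3.11.15 and matplotlib 3.10.9, and sequences were aligned with Biopython 1.88. Promoters are from RefSeq (GRCm38.p6), matched by symbol.

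The members and lists were chosen with earlier results of these data known. Named genes are the members, of each list the 2 called genes of at least 1 CPM with the largest change and the most abundant gene, of each marker list the most abundant gene, and Chrm1, Chrm4, Chrm5, Chat, Ache and Bche. Protein sequences were not used here. A few of the genes and lists examined are not reported here.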

Additional observations from a re-analysis of the deposited data

Results flagged for a closer look

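In 5 of the 72 groups of 5 libraries examined for members and named genes, 1 library stood apart from the other 4 by more than Dixon's critical gap, where chance gives about 1 in 20. Tagln stood at 228 CPM in control 2 against 183 to 187.5 CPM in the other controls. Lmod1 stood at 27.1 CPM in IL-33 library 1 against 29.6 to 30.1 CPM in the others, and Scgb1a1 at 10700 CPM in IL-33 library 5 against 12130 to 12640 CPM. Chrm4 had 0.115 CPM in IL-33 library 2 and Chrm5 0.113 CPM in control 3, each a single read, and 0 in the other 4 libraries of the group.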

How the results depend on the processing

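The count of 3 members called higher and 4 lower was the same with the replicate block, and over all alternatives it ranged from 2 to 3 higher and from 3 to 4 lower. Acta2, Actg2, Chrm2 and Chrm3 kept direction and call in all 19 alternatives, Acta2 at 0.27 to 0.75 and Actg2 at 0.57 to 1.22. With the length and GC correction Tagln stood at 0.17 and Myh11 at -0.22, neither called, and 2 other contractile genes were called higher in place of 4. By limma-voom Cnn1 stood at -0.32 and was not called. Leaving out each library in turn gave -0.42 to -0.24 for Cnn1, which lost its call in 7 of 10 cases, -0.06 to 0.02 for Lmod1 and -0.37 to 0.14 for Myocd, which was positive without control 2. Lmod1 was positive without control 2 or IL-33 library 1. Correlations of same-numbered deviations ran from -0.069 to 0.23, and 1 of 5 controls correlated best with its own number. That count set each control against all 5 IL-33 libraries, and 1 of 5 is the average under random numbering. These few values cannot tell whether the replicate numbers pair the libraries. The block called 11122 genes, against 10975 without it. Counts of 3 reads stand for 0.218 to 0.384 CPM, so Chrm4, Chrm5 and Chat lie at or below what these libraries can measure. Myocd and Chrm3 are limited by their few reads.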
